A study of Rattus norvegicus with 12 samples.

Results

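Integrins are receptors made of 1 alpha and 1 beta subunit that attach cells to the surrounding matrix. The subunits described here are Itga1, Itga5, Itga6, Itga7, Itga8, Itgav, Itgb1, Itgb3, Itgb4 and Itgb5. All probe sets whose single annotated symbol is one of these 10 genes were taken, which gave 21 of the 31099 probe sets in the table, for 10 of the 14217 genes it names. Of the 21, 18 passed a filter on low values and were tested. The 3 left untested were 1371185_at of Itga6, 1371214_at of Itga7 and 1396133_at of Itgb5. Expression was measured in Wistar rats on 12 Affymetrix arrays, 3 in each of 4 groups. The groups by title were adult semilunar valve (aortic and pulmonary), neonatal semilunar valve, adult proximal aorta and neonatal proximal aorta. Adult samples were labelled male, newborns were sampled in their first 24 h, and no treatment or genetic change was named for any group. The labels do not say whether the arrays of a group came from separate animals or from pools, so p-values measure only the spread between these samples, which may be technical.

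An alpha and a beta subunit join inside the cell, and the pair decides which matrix protein is bound. Itgb1 is the common beta partner: with Itga1 it binds collagen, with Itga6 or Itga7 laminin, and with Itga5 or Itga8 proteins that carry the RGD tripeptide, such as fibronectin and nephronectin. Itgav joins Itgb1, Itgb3 or Itgb5 in vitronectin receptors, and Itgb4 joins only Itga6, in the hemidesmosomes of epithelia. In the vessel wall, integrins anchor smooth muscle and endothelium to the basement membrane and interstitial matrix.

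Promoter sequences were looked up for the 10 genes in the RefSeq table of the rat build GRCr8, and 6 were found there (Itga1, Itga5, Itga8, Itgav, Itgb1 and Itgb5). Shown here are the 250 bases before the annotated start of 2 receptor pairs whose levels are described below, Itga8 with Itgb1 and Itgav with Itgb5, written 5′ to 3′ on the gene's strand. Capitals mark the GC box core GGGCGG and the M-CAT core CATTCC, read on both strands, with no overlap between the marked matches.
Itga8 (chr17:80410634-80410883, minus strand): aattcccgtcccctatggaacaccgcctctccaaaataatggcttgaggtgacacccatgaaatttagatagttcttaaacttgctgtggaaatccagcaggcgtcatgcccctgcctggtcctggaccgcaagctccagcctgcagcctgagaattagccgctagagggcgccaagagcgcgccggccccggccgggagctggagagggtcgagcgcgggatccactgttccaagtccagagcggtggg
Itgb1 (chr19:73602027-73602276, plus strand): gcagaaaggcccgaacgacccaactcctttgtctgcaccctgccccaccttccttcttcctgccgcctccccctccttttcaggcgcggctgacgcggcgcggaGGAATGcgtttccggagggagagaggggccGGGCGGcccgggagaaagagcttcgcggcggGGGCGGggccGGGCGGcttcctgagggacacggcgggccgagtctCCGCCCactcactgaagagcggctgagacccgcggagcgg
Itgav (chr3:89245132-89245381, plus strand): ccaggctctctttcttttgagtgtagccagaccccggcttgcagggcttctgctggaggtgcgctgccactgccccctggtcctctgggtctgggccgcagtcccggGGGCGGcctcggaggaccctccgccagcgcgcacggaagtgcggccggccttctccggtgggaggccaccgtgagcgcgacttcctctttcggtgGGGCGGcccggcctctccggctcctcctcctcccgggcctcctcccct
Itgb5 (chr11:80449374-80449623, minus strand): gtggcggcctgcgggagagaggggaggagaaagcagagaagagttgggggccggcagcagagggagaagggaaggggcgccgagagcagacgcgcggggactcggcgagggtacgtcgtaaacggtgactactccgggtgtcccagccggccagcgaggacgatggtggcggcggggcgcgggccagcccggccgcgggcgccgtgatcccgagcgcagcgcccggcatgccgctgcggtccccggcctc
The Itgb1 window held 4 GGGCGG matches and 1 CATTCC match, the Itgav window held 2 GGGCGG matches, and the Itga8 and Itgb5 windows held neither motif. Over all 33469 windows of this length, 30.5% held GGGCGG and 12.1% held CATTCC. The CArG box, the element bound by serum response factor in smooth muscle genes, was matched in 0 of the 6 windows and in 1.5% of all windows. These matches describe letters and no binding was measured.

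The labels conflicted for 6 samples: those titled adult aorta carry the description and tissue entry of neonatal valve, and the reverse. Igf2, a fetal growth factor, gave signals of 184 to 376 in adult valves, 6189 to 8898 in neonatal valves, 339 to 879 in adult aortas and 17220.0 to 20770.0 in neonatal aortas, a division by age that follows the titles, which are used here. Xist, which is transcribed from the inactive X chromosome, gave 11000.0 to 18360.0 in valves against 5.08 to 297 in aortas, although the adult valves are labelled male, so sex and tissue cannot be told apart. The ratio of 3′ to 5′ signal for beta-actin, which is higher where cDNA is shorter, was 7.24 to 14.0 in valves against 1.40 to 2.59 in aortas (exact permutation test, two-sided p = 0.0022, the smallest this design can give). For GAPDH this ratio was 1.97 to 5.13 in valves against 0.917 to 1.13 in aortas (exact permutation test, two-sided p = 0.0022). Neonatal aortas 2 and 3 lacked signal of the control RNAs that were added to the other 10 arrays, and their signals of 5.82 to 54.6 there are taken as the level of absent control RNAs. Adult aorta 1 summed to 140758 over 7 squamous epithelium markers, against 928 and 699 on the other adult aortas, and to 148453 over 7 skeletal muscle markers. Adult valve 3 summed to 1790.3 over 8 smooth muscle markers, against 44961 and 28357 on the other adult valves, and to 36026 over 7 endothelial markers, against 11675 and 18306. Fewer cells of a type and less RNA per cell cannot be told apart in such whole-tissue samples.

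In newborns, 3 of the 10 genes were lower in valve than in aorta on at least 1 probe set: Itga5, the fibronectin receptor alpha subunit, Itgav, the vitronectin receptor alpha subunit, and Itga6, a laminin receptor alpha subunit. In adults the same comparison added Itga7, the laminin receptor alpha subunit of muscle, and Itgb5, a beta partner of Itgav. One further probe set of Itga6, its brightest, went the other way and was higher in adult valve than in adult aorta. With only the highest-mean probe set of each gene, 1 of 10 was lower and 0 higher in neonatal valve. Of all genes, 15% were lower and 12.3% higher there. In adult valve 3 of 10 were lower and 1 higher, against 15.8% and 17.2% of all genes. By probe sets, 4 of 18 (22.2%) were lower and 0 higher in neonatal valve, against 19.3% of all 18552 probe sets tested called lower, 13.3% called higher and 32.6% called in either direction (limma, adjusted p under 0.05). In adult valve, 7 of 18 were lower and 1 higher (44.4% in all), against 19.9% called lower, 17.3% higher and 37.1% in either direction among all probe sets. The share of members called was below that of all probe sets in newborns and not far above it in adults. By probe set, most member differences ran one way, with 15 of 18 negative at each age. Their medians were -1.11 in newborns and -1.16 in adults on the log2 scale, against -0.088 and -0.048 over all probe sets. The 18 probe sets repeat some genes. With 1 probe set per gene, the member medians were -0.572 in newborns and -0.489 in adults, against -0.058 and -0.014 over all genes. In newborns 11 member probe sets were lower in every valve than in every aorta and 1 was higher, where such separation held for 33.5% and 26.2% of all probe sets. In adults 6 were lower without overlap and 0 higher, against 23.2% and 21.1%. The Itga5 probe set and the 2 Itga6 probe sets called lower passed the filter on low values through their aorta signals, where they are higher. With the filter at 6 arrays, 16 members were tested, with medians of -0.91 in newborns and -0.90 in adults. There 2 were lower and 0 higher in neonatal valve, against 2947 and 2272 of all 15917 probe sets. In adult valve 5 were lower and 1 higher, against 3022 and 3000. The RNA ratios and the sex signal above divide the same arrays by tissue, and at both ages so did the summed markers of adipocytes and cardiac muscle. Sums of endothelial and skeletal muscle markers did so in adults only, and those of smooth muscle, macrophage and platelet markers in newborns only. Of 8 smooth muscle markers, 4 were called lower in adult and 2 in neonatal valve. Of 8 macrophage markers, 5 were lower in neonatal and 1 higher in adult valve. Of 7 endothelial markers, 3 were higher in adult and 1 lower in neonatal valve. Of 6 tested adipocyte markers, 5 were called lower in valve at each age, and over 7 on the array the sums were 669 to 4042 in adult valves against 5165 to 99433 in adult aortas, and 1389 to 3113 in neonatal valves against 30458 to 65861 in neonatal aortas. Of 7 cardiac muscle markers, 5 were called higher in adult and 1 in neonatal valve, with sums of 4742 to 90122 in adult valves against 313 to 637 in adult aortas, and 73170.1 to 103877 in neonatal valves against 39082 to 66403 in neonatal aortas. The cardiac markers Tnni3, Myl2 and Nppa were within the level of absent control RNAs on all adult aortas. The part of these signals in the integrin differences was not tested.

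**Figure D1:**
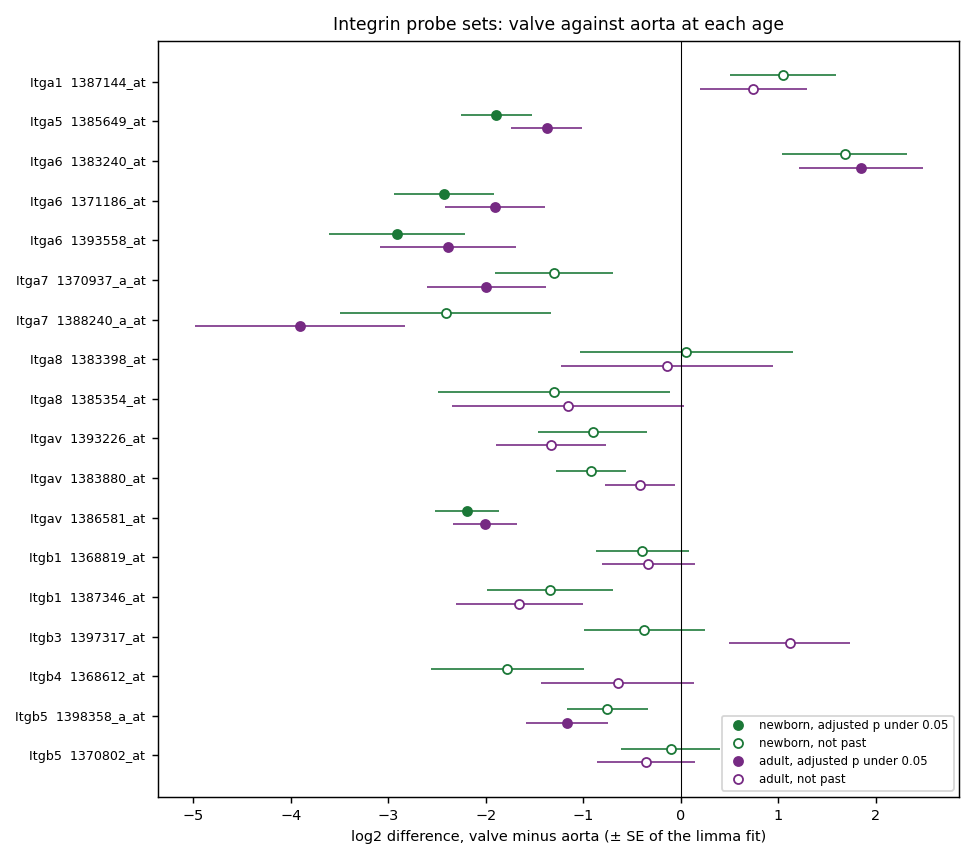
Log2 difference of signal, valve minus aorta, for the 18 tested integrin probe sets at each age, with bars of 1 standard error of the limma fit and filled points past an adjusted p of 0.05. Points lie left of 0 for 15 of 18 probe sets at each age, and the 3 Itga6 probe sets lie on both sides.

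These counts moved with single adult arrays. Without adult aorta 1, 8 member probe sets were called in newborn tissue (background 39.8%) and 11 in adult tissue (background 38%). Without adult valve 3, 8 were called in newborn tissue (background 35.2%) and 6 in adult tissue (background 31.8%). Without adult aorta 2 the adult count was 4 (background 30.7%). The newborn count can change without an adult array because all groups share 1 estimate of spread. With both arrays left out, a choice made after the data were seen, 1 probe set was higher and 12 lower in neonatal valve (background 45.4%), and 1 was higher and 10 lower in adult valve (background 36.4%). Newborn calls other than that of Itgav 1386581_at were lost with the lack of added control RNAs as a term in the model. On the 10 arrays that had these RNAs, that call was lost as well. In both settings neonatal aorta 1 alone stands for the neonatal aortas, so a loss of replication cannot be told apart from the lack of control RNAs. With the term, the newborn difference of Itgav 1386581_at was -1.63 ± 0.42.

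Among the alpha subunits that bind collagen and laminin, Itga1 did not pass in any comparison. Its signal was 2707, 2045 and 1349 in adult valves, 835, 771 and 1318 in neonatal valves, 792, 748 and 2672 in adult aortas and 344, 296 and 944 in neonatal aortas. Every adult valve was above every neonatal valve, and the aortas overlapped through neonatal aorta 3, which lay above adult aortas 1 and 2. The difference between adult and neonatal aorta was 1.35 ± 0.55 in log2 (limma, adjusted p = 0.163), and between adult and neonatal valve 1.04 ± 0.55 (adjusted p = 0.251). By group mean the order from high to low was adult valve, adult aorta, neonatal valve and neonatal aorta, and each pair of neighbours overlapped.

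**Figure D2:**
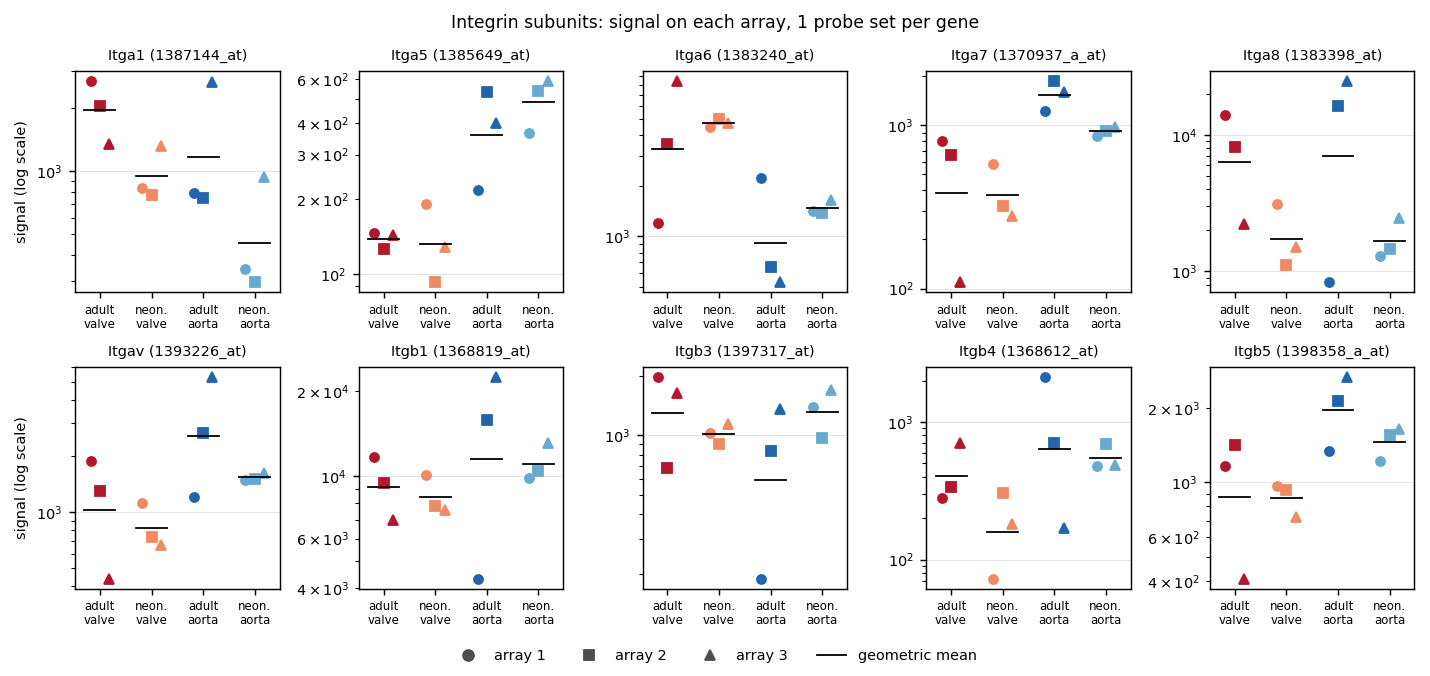
Deposited signal (log scale) on each of the 12 arrays for the probe set with the highest mean of each integrin gene. Symbols mark array 1, 2 and 3 of a group and bars the geometric mean of 3 arrays; adult aorta 1 and adult valve 3 stand apart from their groups for several genes.

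Itga6 was measured by 4 probe sets, and those tested disagreed. Probe set 1383240_at gave 1195, 3548 and 8480.4 in adult valves, 4464, 4993 and 4740.2 in neonatal valves, 2221, 654 and 532 in adult aortas and 1408, 1386 and 1644 in neonatal aortas. Every neonatal valve lay above every neonatal aorta, while adult valve 1 lay below adult aorta 1. The valve was higher by 1.85 ± 0.64 in log2 in adults (3.6-fold, adjusted p = 0.0412), and the newborn difference of 1.68 ± 0.64 did not pass (adjusted p = 0.0646). The adult call held in 8 of 23 alternative settings, with values from 1.17 to 2.58.

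Probe set 1371186_at of the same gene gave 58.8, 73.6 and 112 in adult valves, 48.7, 98.8 and 129 in neonatal valves, 591, 294 and 146 in adult aortas and 406, 427 and 559 in neonatal aortas. All valve arrays were below all aorta arrays, and neonatal valve 1 lay within the level of absent control RNAs. The difference was -2.43 ± 0.51 in newborns (adjusted p = 0.00453) and -1.90 ± 0.51 in adults (3.74-fold lower in valve, adjusted p = 0.0135). Probe set 1393558_at gave 20.9, 90.7 and 68.9 in adult valves, 34.4, 89.0 and 102 in neonatal valves, 696, 215 and 125 in adult aortas and 439, 526 and 578 in neonatal aortas. Again each valve was below each aorta, and the valve signals on arrays 1 lay within the level of absent control RNAs. Its differences were -2.91 ± 0.69 in newborns (adjusted p = 0.00863) and -2.39 ± 0.69 in adults (adjusted p = 0.0198). Without adult aorta 1 the adult call of 1393558_at was lost, at -1.69 ± 0.64 (adjusted p = 0.0598). At 1371186_at and 1393558_at no valve array reached the filter level of 171.944, so both were tested only through their aorta signals. With the filter at 6 arrays neither was tested.

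**Figure D3:**
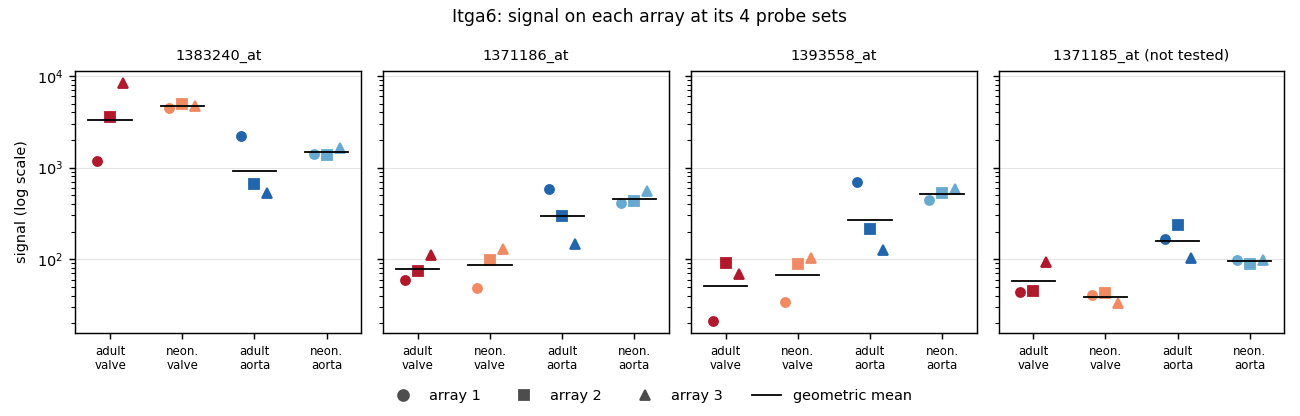
Deposited signal (log scale) of the 4 Itga6 probe sets on each array, with the geometric mean of each group as a bar. Valve arrays lie above aorta arrays at 1383240_at in newborns and below them at 1371186_at and 1393558_at at both ages.

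The 3 tested Itga6 probe sets spanned 4.59 in newborns and 4.23 in adults between their highest and lowest log2 difference of valve minus aorta. Such a range was wider than that of 98.8% and 97.1% of the 2748 genes with 2 or more tested probe sets, whose median range was 1.32 and 1.40. These genes were not matched to Itga6 for their number of probe sets, and a range can only widen as probe sets are added. Opposite calls within a gene were common: of 775 genes with 2 or more probe sets called between the adult tissues, 322 (41.5%) had calls in both directions, and of 649 in newborn tissue, 240 (37.0%). Between ages, the number was 0 of 102 genes in aorta and 0 of 118 in valve, and the Itga6 range was 0.30 and 0.40. The 3′ to 5′ ratios of the arrays divide without overlap by tissue, and those of GAPDH also by age within each tissue. The place of each probe set along the transcript was not analysed here, so the part of these ratios in the disagreement was not tested. The untested probe set 1371185_at gave 43.6, 45.2 and 94.3 in adult valves, 40.3, 43.2 and 33.1 in neonatal valves, 164, 236 and 104 in adult aortas and 98.6, 89.7 and 97.8 in neonatal aortas.

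Itga7, which joins muscle cells to laminin, was lower in adult valve than in adult aorta on both tested probe sets. Probe set 1370937_a_at gave 798, 660.1 and 109 in adult valves, 579, 319 and 279.6 in neonatal valves, 1225, 1873 and 1588 in adult aortas and 861, 923 and 972 in neonatal aortas. No valve reached the lowest aorta at either age. The adult difference was -1.99 ± 0.61 (adjusted p = 0.0242) and the newborn difference -1.30 ± 0.61 (adjusted p = 0.124).

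The second Itga7 probe set, 1388240_a_at, gave 238, 268 and 6.33 in adult valves, 112, 111 and 74.5 in neonatal valves, 899.7, 1343 and 1125 in adult aortas and 504, 498 and 555 in neonatal aortas. Adult valve 3, the array lowest in smooth muscle markers, was far below the other valves and within the level of absent control RNAs. The difference between adult valve and adult aorta was -3.91 ± 1.08 in log2 with all arrays (adjusted p = 0.0159) and -2.13 ± 0.26 without adult valve 3 (adjusted p = 0.000539). In newborns the difference was -2.41 ± 1.08 (adjusted p = 0.111), and without adult valve 3, which narrows the shared spread, the same difference passed (adjusted p = 0.000109). Both tested probe sets ordered the groups as adult aorta, neonatal aorta and then the valves, with no overlap between the aortas or between aorta and valve. A further probe set, 1371214_at, stayed at 2.09 to 21.8 on all arrays, within the level of absent control RNAs.

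Of the alpha subunits that recognise RGD, Itga5 showed the tissue difference at both ages. It gave 147, 127 and 143 in adult valves, 190.4, 93.1 and 129 in neonatal valves, 216, 534 and 403 in adult aortas and 366, 538 and 591 in neonatal aortas. All 6 valves were below all 6 aortas. Among the valves only neonatal valve 1 was above the filter level of 171.944, so the probe set was tested through its aorta signals. The valve was 3.71-fold lower in newborns (log2 difference -1.89 ± 0.37, adjusted p = 0.0031) and 2.59-fold lower in adults (-1.38 ± 0.37, adjusted p = 0.0134). The adult call did not hold without adult aorta 2, and the 2 ages overlapped within each tissue.

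Itgav was measured by 3 tested probe sets, all lower on average in valve than in aorta at both ages. Probe set 1386581_at gave 193, 176 and 152 in adult valves, 146, 114 and 116 in neonatal valves, 435, 809 and 957 in adult aortas and 386, 696 and 684 in neonatal aortas. The tissues did not overlap, and the neonatal valves were all below the adult valves. Its differences, -2.19 ± 0.33 in newborns (4.57-fold lower in valve, adjusted p = 0.000765) and -2.01 ± 0.33 in adults (4.02-fold lower, adjusted p = 0.00103), had the smallest adjusted p among the members in both comparisons. The adult call held in all 23 alternatives that kept the groups by title.

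The brightest Itgav probe set, 1393226_at, gave 1876, 1297 and 440.3 in adult valves, 1127, 739 and 667 in neonatal valves, 1207, 2662 and 5307 in adult aortas and 1486, 1507 and 1626 in neonatal aortas. Adult aorta 1 and adult valve 3 were the lowest of their groups, and the adult tissues overlapped through adult aorta 1. The differences of -0.90 ± 0.56 in newborns and -1.33 ± 0.56 in adults did not pass (adjusted p = 0.243 and 0.0834). Without adult aorta 1 the adult difference was -1.88 ± 0.52 (adjusted p = 0.017). The third probe set, 1383880_at, had signals of 209 to 903 over all arrays, with differences of -0.92 ± 0.36 in newborns (adjusted p = 0.0702) and -0.42 ± 0.36 in adults (adjusted p = 0.38).

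Itga8, the receptor subunit for nephronectin that marks smooth muscle and other mesenchymal cells, had the widest spread of the members among the adult aortas. Probe set 1383398_at gave 13988, 8104 and 2229 in adult valves, 3102, 1119.6 and 1517 in neonatal valves, 834, 16374 and 24875 in adult aortas and 1307, 1455 and 2456 in neonatal aortas. Adult aortas 2 and 3 and adult valves 1 and 2 were above every neonatal array, while adult aorta 1 was the lowest array of all and adult valve 3 lay among the newborns. Probe set 1385354_at gave 5427, 1713 and 431 in adult valves, 431, 203 and 266 in neonatal valves, 395, 8487 and 13283 in adult aortas and 413, 731 and 1159.9 in neonatal aortas, with the same 4 adult arrays above every neonatal array. Neither probe set differed between tissues past the threshold, at 0.058 ± 1.09 and -1.30 ± 1.19 in newborns and -0.14 ± 1.09 and -1.16 ± 1.19 in adults (adjusted p of 0.431 to 0.973).

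Among the beta subunits, only Itgb5 passed between tissues. Itgb1, the common partner, gave 11711, 9425 and 6973 in adult valves, 10064, 7836 and 7561 in neonatal valves, 4331, 15804 and 22358 in adult aortas and 9866, 10418 and 13104 in neonatal aortas at 1368819_at. The groups overlapped, and adult aorta 1 lay below every other array. At 1387346_at the signal was 3389, 2802 and 808 in adult valves, 2771, 2197 and 2426 in neonatal valves, 2009.6, 9967 and 11938 in adult aortas and 5316, 5552 and 8135 in neonatal aortas. Here the neonatal valves were all below the neonatal aortas, and in adults adult aorta 1 fell among the valves. The valve minus aorta difference at 1387346_at was -1.34 ± 0.65 in newborns (adjusted p = 0.136) and -1.65 ± 0.65 in adults (adjusted p = 0.0656). Without adult aorta 1 both Itgb1 probe sets were lower in adult valve, with differences of -1.04 ± 0.25 (adjusted p = 0.00936) and -2.47 ± 0.49 (adjusted p = 0.00352) in log2.

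Itgb5 at 1398358_a_at gave 1166, 1410.3 and 408 in adult valves, 964, 929 and 723 in neonatal valves, 1339.8, 2127 and 2663 in adult aortas and 1217, 1556 and 1636 in neonatal aortas. Neonatal valves lay below neonatal aortas, and adult valve 2 overlapped adult aorta 1. The adult difference was -1.17 ± 0.42 (2.24-fold lower in valve, adjusted p = 0.0468) and held in 7 of 23 alternatives, not among them the removal of adult valve 3 (-0.62 ± 0.29, adjusted p = 0.135). Its other tested probe set, 1370802_at, gave 821, 765 and 206 in adult valves, 425, 351 and 271 in neonatal valves, 363, 794 and 939 in adult aortas and 312, 397 and 404 in neonatal aortas, with differences of -0.10 ± 0.51 and -0.35 ± 0.51 that did not pass (adjusted p = 0.897 and 0.608). The untested 1396133_at gave 338, 131 and 106 in adult valves, 153, 142 and 169.8 in neonatal valves, 97.0, 135 and 147 in adult aortas and 77.1, 144 and 84.8 in neonatal aortas.

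Itgb3, which joins Itgav on vessel wall cells and Itga2b on platelets, gave 1966, 682 and 1636 in adult valves, 1025, 901 and 1138 in neonatal valves, 189, 833 and 1359.7 in adult aortas and 1389, 969.8 and 1698 in neonatal aortas. Adult aorta 1 was the lowest array, and the groups otherwise overlapped. Its valve minus aorta difference was -0.37 ± 0.62 in newborns and 1.12 ± 0.62 in adults (adjusted p = 0.681 and 0.177). Over 5 platelet markers adult valve 3 summed to 8084, the highest of any array, and Itgb3 on that array was between those of the other adult valves.

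Itgb4, the hemidesmosome beta subunit, gave 280.4, 339 and 699 in adult valves, 72.5, 304 and 181 in neonatal valves, 2125, 707 and 170.3 in adult aortas and 482, 688 and 488 in neonatal aortas. Adult aorta 1, the array with the squamous epithelium markers, was the highest array, and neonatal aorta 2, which summed to 63862 over those markers against 6586 and 2071 on the other neonatal aortas, was the highest of its group. Above neonatal aorta 2 for Itgb4 were also adult aorta 2, which summed to 928 over those markers, and adult valve 3, which summed to 1269. The difference was -1.78 ± 0.79 in newborns (adjusted p = 0.105) and -0.65 ± 0.79 in adults (adjusted p = 0.544). Col17a1, a hemidesmosome collagen, gave 2195 on adult aorta 1 against 75.9 and 88.0 on the other adult aortas. The part of epithelium in the Itgb4 signal was not tested.

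Between adult and newborn, no integrin gene passed the test in either tissue with all 12 arrays. In aorta 0 of 18 probe sets were called, against 7.31% of all probe sets (1.94% higher and 5.37% lower in adults), and in valve 0 of 18 against 9.21% (4% higher and 5.21% lower; limma, adjusted p under 0.05). At an unadjusted p under 0.05 there was 1 member probe set in each tissue, Itga1 in aorta and Itgav 1383880_at in valve (log2 difference 0.81 ± 0.36, adjusted p = 0.179). The median difference was 0.30 in aorta and 0.22 in valve, against -0.083 and -0.038 over all probe sets, and 12 and 13 of 18 were positive. In aorta 2 probe sets, both of Itga7, were higher in every adult than in every newborn array and 0 lower, where 10.7% of all probe sets were higher and 20.2% lower in this way. In valve 3 were higher (Itga1 and 2 of Itgav) and 0 lower, against 14.9% and 18.5%. When the aortic age effect was subtracted from the valvular one, 0 of 18 were called, against 0.0593% of all, and 0 of 18 had an unadjusted p under 0.05. These differences of age differences ran from -1.50 at Itga7 1388240_a_at to 1.49 at Itgb3. The RNA ratios and markers of several cell types also moved with age. The beta-actin ratio was 10.7 to 14.0 in adult valves against 7.24 to 8.84 in neonatal valves, and overlapped in aortas, at 1.44 to 2.59 in adults against 1.40 to 1.55 in newborns. The GAPDH ratio was 2.78 to 5.13 in adult valves against 1.97 to 2.60 in neonatal valves, and 0.999 to 1.13 in adult aortas against 0.917 to 0.972 in neonatal aortas. Of the 7 cardiac muscle markers, 6 were called lower in adult aorta and 2 in adult valve. Of 8 macrophage markers, 2 were called lower in adult aorta and 2 higher in adult valve. Of 7 endothelial markers, 1 was called lower in adult aorta and 1 higher in adult valve. Of 5 tested skeletal muscle markers, 1 was called lower in adult valve. The part of these in the age differences was not tested.

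The age result turned on adult aorta 1 and adult valve 3. These were the lowest arrays of their groups for 13 and 12 of 18 members, so leaving them out raises the adult means of those members. Of all 18552 probe sets, 959 were called higher and 1526 lower in adult aorta without adult aorta 1, and 1406 and 1687 in adult valve. Without adult valve 3 these counts were 502 and 1214 in aorta and 499 and 638 in valve. Itga8 differed between adult and neonatal aorta by 2.06 ± 1.09 and 2.33 ± 1.19 on its 2 probe sets with all arrays (adjusted p = 0.286 and 0.271). Without adult aorta 1 they were higher in adults by 3.59 ± 0.67 and 3.91 ± 0.83 (adjusted p = 0.00728 and 0.0134). In valve the Itga8 differences were 1.86 ± 1.09 and 2.48 ± 1.19 with all arrays (adjusted p = 0.306 and 0.213). Without adult aorta 1 the second of these passed (adjusted p = 0.0449). Without adult valve 3, Itga7 1388240_a_at was higher in adults, by 1.10 ± 0.23 in aorta and 1.37 ± 0.26 in valve (adjusted p = 0.0175 and 0.0136), where all arrays gave 1.10 ± 1.08 and -0.40 ± 1.08.

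With both arrays left out, which was decided after the data were seen and leaves 2 adult arrays in each tissue, 8 member probe sets were higher and 1 lower in adult than in neonatal aorta (background 19% of all probe sets called). In valve 5 were higher and 1 lower (background 15.4%). In both tissues Itga8 was higher in adults, by 3.59 and 3.91 in aorta and 2.61 and 3.42 in valve. Itga7 1388240_a_at was higher by 1.25 in aorta and 1.37 in valve, and Itgb5 1370802_at by 1.23 and 1.21. Itga6 1383240_at was lower in adults, at -1.32 in aorta and -1.20 in valve. Itgb1 was called in aorta on both probe sets (0.77 and 0.81), and at these probe sets the valve values were 0.32 and 0.33 (adjusted p = 0.34 and 0.337). Itgav 1393226_at (1.29) and Itgb5 1398358_a_at (0.71) were also called in aorta, and Itga7 1370937_a_at (0.96) in valve. The difference of age differences was called for 0 of 18 (background 0.329%).

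**Figure D4:**
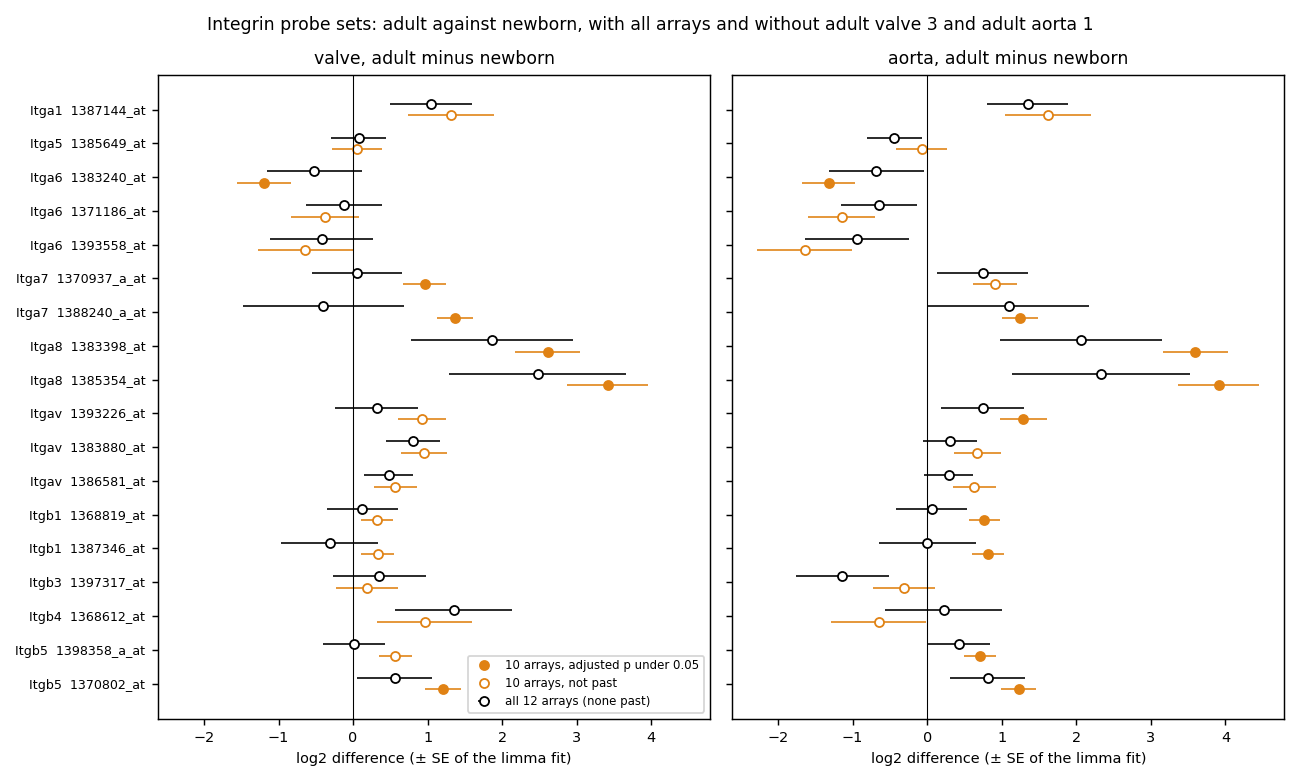
Log2 difference of signal, adult minus newborn, in valve (left) and aorta (right), with bars of 1 standard error. Black points use all 12 arrays, where 0 of 18 passed in either tissue; orange points leave out adult valve 3 and adult aorta 1, and filled ones passed an adjusted p of 0.05 (6 in valve, 9 in aorta).

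The members varied more between arrays of 1 adult group than probe sets in general. The median standard deviation of the 18 probe sets was 1.03 in adult valve, 0.37 in neonatal valve, 1.05 in adult aorta and 0.27 in neonatal aorta, in log2, against 0.374, 0.295, 0.459 and 0.211 over all tested probe sets. The highest was 3.07, at Itga7 1388240_a_at in adult valve. Adult aorta 1 was the lowest array of its group for 13 of 18 members, where it was so for 45.5% of all probe sets. It was the highest for 4, which belong to Itga6 and Itgb4 (33.7% of all). Adult valve 3 was the lowest for 12 of 18 (35.6% of all probe sets) and the highest for 3 (40.7% of all), again of Itga6 and Itgb4. In newborns neonatal aorta 3 was the highest of its group for 16 of 18 members (37.1% of all).

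Beside these orders, the summed signal of the 8 smooth muscle markers was 44961, 28357 and 1790.3 in adult valves, 14744, 12999 and 11280 in neonatal valves, 37507, 100614 and 135630 in adult aortas and 32084, 38504 and 49424 in neonatal aortas. All 8 markers were above the level of absent control RNAs on every array. Itga7, Itgav and Itgb5 were low where this sum was low and Itga6 1383240_at was high there, while Itga8 and Itgb1 on adult aorta 1 fell below the other aortas with a similar sum. The part of smooth muscle content in the integrin differences was not tested.

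**Figure D5:**
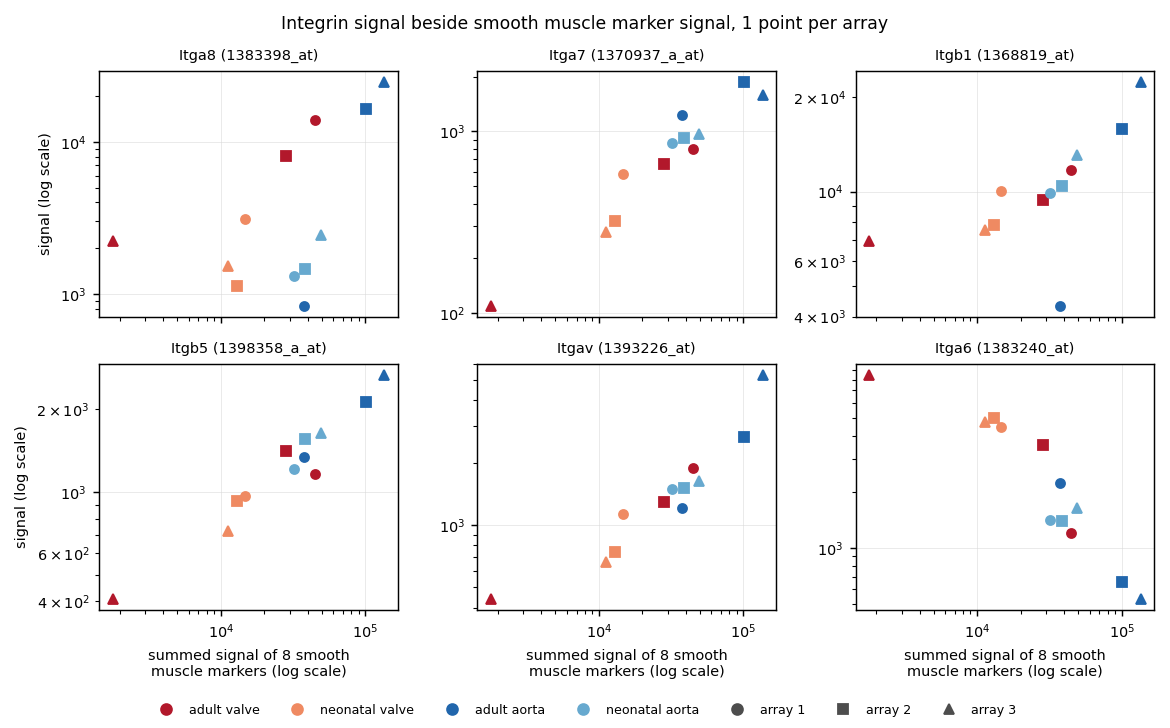
Signal of 6 integrin probe sets against the summed signal of 8 smooth muscle markers (both log scales), 1 point per array. Adult valve 3 has the lowest sum, 1790.3, and the lowest Itga7, Itgav and Itgb5; adult aorta 1 lies lowest for Itga8 and Itgb1 at a sum of 37507.

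Over the 12 arrays, which share 4 groups, the members' log2 signals at the highest-mean probe sets followed each other to different degrees. The highest Pearson correlations were 0.948 for Itga7 with Itgb5, and 0.930 for Itgav with Itgb5, its receptor partner. Itga8 and its partner Itgb1 gave 0.783, and Itgav with Itgb3 0.0595. Itga6 at 1383240_at ran against Itgav (-0.942), Itga7 (-0.889) and Itgb5 (-0.885). Among 10381 other genes, those most like Itgb5 were Cnn1 (0.964), Tpm2 (0.954) and Tagln (0.954), which encode proteins of the smooth muscle contractile apparatus. Nearest to Itga7 were Msrb1 (0.950), Kcnmb1 (0.946), a potassium channel subunit of smooth muscle, and Chst12 (0.945). For Itgav they were C19h1orf198 (0.960), Rnd3 (0.957) and Kcnmb1 (0.954), and for Itga5 Myh9 (0.971), a nonmuscle myosin heavy chain, Antxr1 (0.963) and Kcnh3 (0.961). Itga6 was most like Trim24 (0.954), Pafah1b1 (0.953) and Zfp217 (0.949). These are descriptions over arrays that also differ in the RNA ratios given above.

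Of 16 other integrin subunits listed, 12 were named on the array and 8 tested, with 1 probe set per gene. Only Itga11, a collagen receptor alpha subunit, passed: it was higher in adult than in neonatal valve, at 1131, 602 and 182 in adult valves against 113, 28.6 and 116 in neonatal valves (log2 difference 2.79 ± 0.77, adjusted p = 0.0459), and 0 of 8 passed in the other comparisons of 2 groups. The medians of these 8 were 0.104 for age in valve and 0.499 for age in aorta, against -0.053 and -0.11 over all tested genes. Between tissues they were 0.318 in newborns and -0.27 in adults, against -0.058 and -0.014 over all genes. Of all genes, 4.15% were called higher and 6.01% lower in adult than in neonatal valve, and 1.69% and 6.01% in adult than in neonatal aorta. Between tissues 12.3% were higher and 15% lower in neonatal valve, and 17.2% and 15.8% in adult valve.

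Ligands of the receptors were listed as 28 genes, of which 21 were tested. Between ages, 0 were higher in adults, while 4 were lower in valve and 2 in aorta, with medians of -0.82 and -0.65 against -0.053 and -0.11 over all genes. Of 10391 genes tested, with 1 probe set each, 4.15% were called higher and 6.01% lower in adult valve, and 1.69% higher and 6.01% lower in adult aorta. Tnc, the matrix glycoprotein tenascin C, gave 85.3, 203 and 188 in adult valves against 2729.9, 3565 and 3252 in neonatal valves (-4.42 ± 0.40, adjusted p = 0.000297), and 267, 99.6 and 164 in adult aortas against 734, 1071 and 1091 in neonatal aortas (-2.54 ± 0.40, adjusted p = 0.00458). Adult and newborn arrays did not overlap in either tissue. Also lower in adult valve were the type IV collagens Col4a2 (-2.20 ± 0.47, adjusted p = 0.0175) and Col4a1 (-1.85 ± 0.50, adjusted p = 0.0418) and the type I collagen Col1a1 (-2.81 ± 0.77, adjusted p = 0.0438), and in adult aorta the laminin chain Lama5 (-1.88 ± 0.34, adjusted p = 0.00929).

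Between tissues, Tnc was higher in neonatal valve than in neonatal aorta (1.74 ± 0.40, adjusted p = 0.00707). Lama5 was lower there (-1.16 ± 0.34, adjusted p = 0.0238), and in adults Col4a2 (-1.37 ± 0.47, adjusted p = 0.0393) and Col4a1 (-1.42 ± 0.50, adjusted p = 0.0433) were lower in valve. Tgfb1, whose latent form binds Itgav receptors, gave 4.58, 3.11 and 26.9 in adult valves and 10.7, 7.08 and 33.3 in neonatal valves, against 229.8, 487 and 499 in adult aortas and 504, 498 and 489 in neonatal aortas. All 6 valve signals were within the level of absent control RNAs, so Tgfb1 was tested only through its aorta signals. The list had 1 gene higher and 2 lower of 21 in newborn tissue (median -0.66) and 0 higher and 3 lower in adult tissue (median -0.42), against medians of -0.058 and -0.014 over all genes. Of all genes, 12.3% were called higher and 15% lower in neonatal valve, and 17.2% higher and 15.8% lower in adult valve.

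Of 23 listed adaptor and signalling genes, which link integrin tails to actin and kinases, 22 were tested. Lims1, an adaptor of the integrin-linked kinase complex, was higher in valve at both ages, at 8233, 7111 and 7494 in adult valves against 4072, 3278 and 4215 in adult aortas and 7569, 6375 and 6298 in neonatal valves against 3766, 3156 and 3448 in neonatal aortas (adjusted p = 0.00125 in adults and 0.00166 in newborns). The talin gene Tln1 was lower in valve in newborns (-1.46 ± 0.45, adjusted p = 0.0284) and in adults (-1.53 ± 0.45, adjusted p = 0.0204). Tln2, the other talin gene, was lower in adult valve (-1.58 ± 0.31, adjusted p = 0.0028), and in newborns its difference was -0.78 ± 0.31 (adjusted p = 0.0744). Lpp, a focal adhesion protein, was lower in valve in newborns (-1.60 ± 0.38, adjusted p = 0.00788) and in adults (-1.31 ± 0.38, adjusted p = 0.0186). Itgb1bp1, which binds the Itgb1 tail, was lower in adult valve (-0.92 ± 0.22, adjusted p = 0.00795). Bcar1, a docking protein of focal adhesions, was higher in adult valve than in adult aorta (2.51 ± 0.58, adjusted p = 0.00682) and lower in adult than in neonatal aorta (-2.44 ± 0.58, adjusted p = 0.0304). Its adult aorta signals of 19.1, 56.7 and 140.5 were low, the first within the level of absent control RNAs. In all, 1 was higher and 2 lower in neonatal valve and 2 higher and 4 lower in adult valve, shares below the 12.3%, 15%, 17.2% and 15.8% of all genes except for the 4 lower in adults, with 1 lower by age in valve (Tln2, -1.17 ± 0.31, adjusted p = 0.0404) and 1 in aorta. The list medians were -0.27 in newborn and -0.29 in adult tissue, against -0.058 and -0.014 over all genes, and for age 0.22 in valve and -0.018 in aorta, against -0.053 and -0.11.

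Hemidesmosome partners of Itga6 and Itgb4 were listed as 7 genes, with 5 tested. Plec, the plectin linker to intermediate filaments, was lower in valve at both ages, at -1.05 ± 0.29 in newborns (adjusted p = 0.0184) and -0.96 ± 0.29 in adults (adjusted p = 0.0245) in log2. Its adult aorta signals were 3593, 1732 and 1705, highest on adult aorta 1. Between tissues 1 of 5 was thus lower and 0 higher at each age, where 15% of all genes were lower in neonatal and 15.8% in adult valve. None of the 5 passed between ages, and their medians were 0.447 in valve and 0.364 in aorta, against -0.053 and -0.11 over all genes.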

How the data were processed

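Gene expression was measured on 12 Affymetrix rat arrays, 3 for each of 4 groups given by the sample titles. Each deposited value is a probe set's intensity, in linear units. Affymetrix Expression Console and MAS5 are the programs the authors used, per the submitters' processing notes. Their versions were not given in the sources used here. With 2% trimmed from both ends, array means were 500.14 to 500.17, so 1 factor had scaled each array, and a value is relative to the rest of its array. MAS5 signals rest on a few probes of a transcript each, so shortened cDNA can move them. Detection calls were not used.

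The tests left out 57 control probe sets. Of the other 31042, 20826 had 1 symbol in the array's annotation, 436 several and 9780 none. All 21 integrin probe sets matched the RefSeq gene table by gene ID and symbol. Signals were floored at 1 and log2 was taken. Probe sets above 171.944, the median of all values, on at least 3 of 12 arrays were kept (18552). A probe set could thus pass through the arrays of 1 group alone. The 4 group means were estimated together from the 12 arrays in limma 3.58.1 (R 4.3.3), using eBayes with a trend and 8 residual degrees of freedom, with Benjamini-Hochberg adjustment over all kept probe sets, two-sided, at 0.05. Errors are standard errors of that fit, and precision is limited by 3 arrays per group. The fit was tested on simulated data.

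All 10 members were named with every probe set, and the one with the highest mean stands for a gene where a single value is used. From each list of related genes, up to 4 called genes per comparison with the smallest adjusted p were eligible, and for each called member the 3 genes most correlated with it were named. Col17a1, Igf2 and Xist were named after their values were seen. The members and lists were chosen with earlier results of these data known. Promoter windows are the 250 bases before the start in RefSeq's GRCr8 table. Alternatives covered normalization, log offset, filters, samples in the fit, variance trend, a replicate block, the conflicting labels, the added control RNAs and each array left out in turn.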

Additional observations from a re-analysis of the deposited data

How the results depend on the processing

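The count of integrin probe sets called was 4 between newborn tissues and 8 between adult tissues, with 0 for age in valve and in aorta. Leaving out 1 array at a time gave 4 to 8 between newborn tissues and 4 to 11 between adult tissues. Of all 18552 probe sets, 4101 to 7386 and 5692 to 7048 were then called. It gave 0 to 1 for age in valve (662 to 3093 of all) and 0 to 2 for age in aorta (431 to 2485 of all). Fitting only the 2 groups compared gave 13 between newborn tissues, where 3827 of all 18552 probe sets were called higher and 5181 lower. It gave 1 between adult tissues (3646 of all called) and 1 for age in aorta (811 of all called). The newborn count was 2 with the filter at 6 arrays, where fewer members were tested and 2272 higher and 2947 lower were called of all 15917 probe sets. It fell further with the lack of control RNAs as a term and on arrays that had them. In both, neonatal aorta 1 alone stands for its group. The adult tissue count was 5 on arrays with these RNAs (2524 higher and 2921 lower of all) and 5 with arrays centred on their medians (5308 higher and 2264 lower of all). With adult aorta 1 and adult valve 3 both out, chosen after seeing the data, the count was 13 between newborn tissues (45.4% of all probe sets called). It was 6 for age in valve (15.4% of all) and 9 for age in aorta (19% of all). The difference of age differences, which a fit of 2 groups cannot give, was called for 0 members in the other settings named here. The actin and GAPDH ratios differed by 2.48 to 2.71 and 1.37 to 1.64 in log2 with 1 array out.

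With groups by description, adult aorta and neonatal valve are exchanged, so by construction the counts pass to other comparisons: 4 for age in aorta, 8 for age in valve, and 0 between tissues at each age. Of 72 differences over the 18 probe sets and 4 comparisons, 46 turned sign there, 6 of them called by title. Among the differences with an unadjusted p under 0.05, or called with 1 array out, those that turned were, for age in aorta, Itga8 1385354_at (-1.30) and Itga7 1388240_a_at (-2.41), and for age in valve, Itgav 1383880_at (-0.42) and Itga8 1385354_at (-1.16). Between adult tissues they were Itgb1 1368819_at (0.12), Itga7 1370937_a_at (0.053), Itga6 1383240_at (-0.52), Itga8 1385354_at (2.48), Itga5 (0.074), Itgav 1386581_at (0.48) and 1393226_at (0.32), and Itgb5 1398358_a_at (0.017). Between newborn tissues they were Itgb4 (0.22), Itga7 1370937_a_at (0.75) and 1388240_a_at (1.10), Itga6 1383240_at (-0.68), Itgav 1383880_at (0.31) and 1386581_at (0.29), and Itgb5 1398358_a_at (0.43). Under the other settings, 20 of the 72 turned in at least 1, and 0 of these 20 were called with all arrays. Among those with an unadjusted p under 0.05, or called with 1 array out, sign turned for Itga7 1388240_a_at by age in valve, to 0.17 with 32 added to the signal, to 1.37 without adult valve 3, alone or with adult aorta 1, in a range of -1.33 to 1.37 with 1 array out. It also turned for Itgb1 1368819_at between adult tissues, to 0.058 with quantile normalization, 0.059 with median centring and 0.15 without adult aorta 3, in a range of -1.04 to 0.15 with 1 array out. The cause was not tested.

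The labels do not say whether replicate numbers pair the samples. Deviations of same-numbered arrays correlated at -0.314 to 0.237. Differently numbered arrays were not compared, so pairing is not settled. The replicate block gave 4 member calls between newborn tissues (2296 higher and 3424 lower of all) and 6 between adult tissues (3059 and 3567). By age it gave 0 in valve (609 and 849) and in aorta (286 and 842). Adult calls of Itga6 1383240_at (adjusted p = 0.0675) and Itgb5 1398358_a_at (adjusted p = 0.0611) were lost.

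Median centring moved the median of all probe sets from -0.088 to 0.24 between newborn tissues and from -0.048 to 0.34 between adult tissues. Calls were then 4072 higher and 2381 lower in neonatal valve (2461 and 3582 on the deposited scale) and 5308 and 2264 in adult valve (3207 and 3684). Over all probe sets, the 1357 calls for age in aorta became 811 with only the 2 groups, 69 with the control RNA term, 14 on arrays with these RNAs, 3530 without both doubted arrays and 431 to 2485 with 1 array out. The 1709 for age in valve became 663, 2858 and 662 to 3093 on arrays with control RNAs, without both arrays and with 1 out. The 6043 between newborn tissues became 1416 with the control RNA term and 641 on arrays with these RNAs, and the 6891 between adult tissues became 3646 with only the 2 groups. With groups by description these 4 counts exchange places. The 11 calls for the difference of age differences became 4 with the filter at 6 arrays, 1 with the replicate block or control RNA term, 0 on arrays with control RNAs, 61 without both arrays and 1 to 37 with 1 out.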
